A study of Mus musculus with 14 samples.

Results

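White blood cells (WBC) are the class of sorted host cells that carry the mouse's own genome in a study of candidate tumor-leukocyte hybrid cells. They were taken from the authors' table of single cells as every cell of the class WBC, whatever its tissue, which gave 67 of the 648 cells with DNA coverage. All mice were female C57BL/6J animals aged 6 to 8 weeks. In the group labelled Tumor, mice had received injections of fluorescently labelled B16F10, a melanoma line of C57BL/6J origin, with no drug; the group labelled Naive had not. The tumor-injected mice gave 46 WBC in 6 batches: C1L (3 cells from blood), C1N (4 from blood, 6 from lung), C1R (9 and 3), C2N (2 from blood), C2R (4 and 9) and C3R (6 from blood). The naive mice gave 21 WBC in 1 batch, whose tissue is labelled Control. Each cell was sorted by FACS on tumor and host markers and its DNA was amplified with MALBAC, a whole-genome amplification for single cells. A batch was 1 sample and was used as the replicate, so the naive side had n = 1. The labels do not say whether a batch is 1 animal, several, or separate sorts of 1 animal, so p-values measure only the spread between batches. The markers of the sort and the kinds of leukocyte in the WBC class are not given in the sources used here.

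Blood leukocytes include myeloid cells, which keep their antigen receptor genes in the inherited arrangement, and B and T lymphocytes, which do not. During V(D)J recombination the Rag1 and Rag2 proteins cut beside V, D and J gene segments and join a chosen set, and the DNA between the joined segments is usually deleted from the chromosome. B cells rearrange the immunoglobulin heavy chain locus Igh and then a light chain locus, Igk or Igl, whereas T cells rearrange the T cell receptor loci Tcra/Tcrd, Tcrb and Tcrg. Loss of coverage inside these loci is therefore a known feature of the DNA of mature B and T cells.

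Coverage is given below as a ratio, a bin's deposited value over the median of the same cell's autosomal bins, or as a log2 difference with a pseudocount of 0.1. Bins had a median width of 537 kb. Other cells measured the same way serve for comparison: 43 CTC (circulating tumor cells), 22 cells of the cultured line, and 177 cells of the class labelled DP whose autosomal median rounded to 1 times that of the naive WBC, called host-level DP here. All 67 WBC lay at the host coverage level. A tumor score, scaled so that naive WBC average 0 and cultured cells 1, ran from -0.09 to 0.08 over WBC against 0.83 to 1.06 over CTC. The X level, the median log2 value of the X bins relative to the autosomes, was between -0.20 and 0.27 in WBC and between -1.41 and -0.96 in CTC. The host-level DP cells were less uniform, with autosomal medians of 1.69 to 2.40 in the deposited unit against 1.71 to 1.91 in naive WBC. In batch C1L, 1 of their 10 cells reached a tumor score of 0.92 with an X level of -1.03.

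Some WBC stood apart from the rest. In C1R blood, 7 of 9 cells shared a genome-wide coverage profile, described below, with noise and X level raised in the same cells. The noise, the median size of the log2 step between neighbouring autosomal bins, was 0.173 to 0.230 in those 7 cells against 0.1495 to 0.166 in the other 2. In C2R blood, 2 of 4 cells had Y bins at 0.218 and 0.147 of the autosomal median, where the third highest WBC had 0.0324 and the highest naive WBC 0.0299. The number of reads per cell is not in the files used here, so depth is unknown and the noise is the only measure of precision per cell. No identifier occurred in more than 1 column and no WBC profile was identical to another.

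Whole chromosomes varied little among WBC. Per autosome, the SD over the 67 cells of the chromosome's median log2 value ran from 0.0288 on chromosome 2 to 0.0552 on chromosome 17. For scale, a gain of 1 copy on 2 is 0.58 and a loss of 1 of 2 copies is -1 on this scale. Of all autosome-by-cell values, 96.5% lay within 0.1 of the WBC mean. The X chromosome spread more, with an SD of 0.0826, and all 3 cells above 0.2 in X level were C1R blood cells. Within the naive batch, the SD of the X chromosome was 0.0337. The map of chromosome levels shows the rows of most cells as near-blank, with the marked entries held by a few cells.

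**Figure D1:**
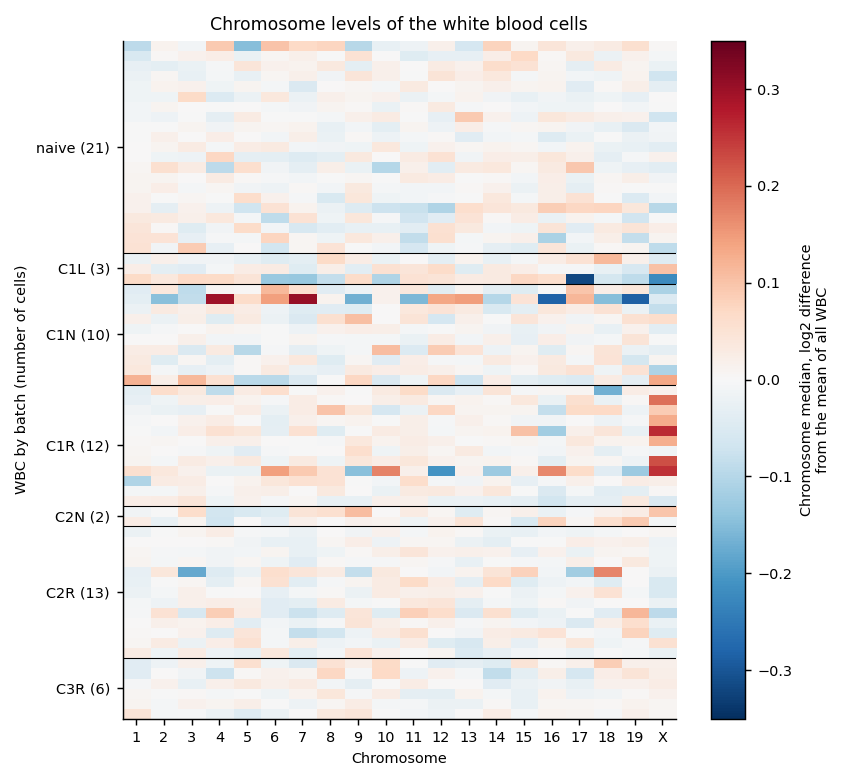
Median log2 coverage of each chromosome (columns) in each of the 67 WBC (rows, grouped by batch with the number of cells), as the difference from the mean of all WBC; red is higher and blue lower. A C1N blood cell is marked on several chromosomes, a C1L blood cell on chromosome 17 and several C1R cells on X, while the 21 naive cells show no value past 0.3 in size.

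Of 1340 cell-by-chromosome values, 2 were at least 0.3 from the WBC mean, or 0.149%. They lay in 2 of 67 cells (2.99%, exact 95% binomial interval 0.364 to 10.4, counting error only). The first was a C1N blood cell at 0.30 on chromosome 7. The same cell stood at 0.30 on chromosome 4 and -0.28 on both chromosomes 16 and 19, just inside the limit, and its noise of 0.208 was the highest in its batch. The second was a C1L blood cell at -0.32 on chromosome 17 and -0.22 on X, with a low noise of 0.147. No value reached a copy-number step of a whole chromosome. Among naive WBC, 0 of 21 cells passed, for which the exact 95% upper limit is 16.1%, and among tumor-injected WBC 2 of 46 did. At a limit of 0.2 the count was 10 values in 5 cells, and at 0.4 it was 0.

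Shorter stretches were searched as runs of at least 10 bins in which a running median of 5 bins lay at least 0.4 from the WBC mean. There were 17 runs, 9 higher and 8 lower, and they fell in 4 of the 67 cells, none of them naive. A C1R blood cell with the highest noise of all WBC (0.230) held 7 runs, and another C1R blood cell (noise 0.202) held 5. The C1N blood cell with the chromosome 7 deviation held 3. A C2R lung cell held the remaining 2, both lower and both on chromosome 3, at -0.72 over 14 bins (chr3:52926760-60543802) and -0.64 over 17 bins (chr3:72740510-84339649). That cell's noise was 0.183, the highest in its batch, and its Igh value was also low (below). The longest run covered 23 bins (chr7:9402899-24061130, 14.7 Mb) at 0.60 in the noisiest C1R cell. With at least 20 bins required, only that run was left.

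The shared profile of C1R blood cells was measured by correlating each cell's log2 difference from the naive mean, over 4120 autosomal bins, with the mean of the other C1R blood cells. The 7 cells had r between 0.60 and 0.87, and the remaining 2 had 0.005 and 0.12. These correlations are descriptions over bins, which are not independent. Outside C1R blood, 1 of 58 WBC exceeded 0.5, a C2N blood cell at 0.68. The 3 C1R lung cells had 0.10 to 0.36, the 3 C1L blood cells 0.16 to 0.36 and the 21 naive cells -0.11 to 0.14. The naive mean is the reference, so a low average r is built into the naive cells. Among host-level DP cells 4 of 177 exceeded 0.5, in C1L and C1N. The 7 cells had X levels of 0.10 to 0.27, against 0.002 and 0.04 in the other 2.

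The bins at the ends of this profile were picked from their values. The 6 lowest each held 1 protein-coding gene. The bin of Lsamp, a neuronal adhesion protein, averaged -0.59 ± 0.40 (SD, n = 9 cells) and that of Robo2, an axon guidance receptor, -0.57 ± 0.42, both lower than the naive mean in 9 of 9 cells. The next lowest, that of Trps1, a transcription factor gene, averaged -0.53 ± 0.35 and was lower in 8 of 9. A bin with 19 olfactory receptor genes, Olfr1297 to Olfr1318, on chromosome 2 averaged 0.77 ± 0.41, and a bin of vomeronasal receptors, Vmn1r119 to Vmn1r131, on chromosome 7 averaged 0.75 ± 0.39, both higher in 9 of 9 cells. These were the 2 highest bins. In C1R lung cells the Lsamp, Robo2, olfactory and vomeronasal bins averaged -0.22, -0.06, 0.07 and 0.10. Over all autosomal bins, the tenth with the lowest C1R blood values held a median of 1 protein-coding gene per bin and the tenth with the highest held 5, against 3 in all. The part of noise and of the X level in this profile was not tested.

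Low coverage in WBC was mostly shared with the other cells. A mean ratio below 0.5 was found at 48 of 4376 bins (1.1%), 32 autosomal and 16 on X. The highest mean inside the limit was 0.487 and the lowest autosomal mean outside it 0.5002. All 32 autosomal bins were also below 0.5 in host-level DP and 31 of 32 in CTC. The autosomal low bins held a median of 9 pseudogenes and 8 protein-coding genes, against 1 and 3 per autosomal bin in general. Chromosomes 7 and 14 had 8 each and chromosome 5 had 5.

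Of the 10 lowest bins, the lowest pair lay side by side on chromosome 2 (chr2:175842272-176642278 and chr2:175195854-175842271), with zinc finger genes such as Zfp966 and Zfp968, and averaged 0.000404 and 0.000456 of the autosomal median. A chromosome 4 bin (chr4:42180868-42769499) averaged 0.00174 ± 0.00121 (SD, n = 67 cells). It holds the chemokine genes Ccl19, Ccl21b and Ccl27b, whose products guide lymphocytes and dendritic cells, and the receptor gene Il11ra2. Of the others, 4 were on X, at 0.00102 (from 124455175), 0.0443 (from 30217086), 0.0562 (from 27699939) and 0.0717 (from 28283666), with predicted genes or no protein-coding gene. The vomeronasal bin chr7:21594808-22256884 averaged 0.0355 and a chromosome 14 bin of predicted genes (chr14:5205390-5752457) 0.0508. In all 9 of these the CTC mean was between 0.45 and 1.33 times that of WBC.

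The remaining bin, chr14:52958219-53528636 in the V region of Tcra/Tcrd, averaged 0.00649 ± 0.00501 in WBC (lowest 0.000666, highest 0.0243). It holds 58 V segments with pseudogenes counted and 54 without. In CTC the mean was 0.439 ± 0.0737 and in culture 0.440 ± 0.0416, and the lowest CTC value, 0.227, was above every WBC. Relative to CTC the WBC bin differed by -2.89 on the log2 scale (SE 0.04, limma adjusted p = 7.82e-16, 5 batches with both classes, batch as block). The pseudocount of 0.1 limits the size of that log2 value. Without it, the CTC mean ratio was 67.7 times the WBC mean ratio. Every WBC was low there, in blood, lung and naive mice alike, and the host-level DP mean was 0.0144. The other autosomal low bin with a CTC mean over 1.5 times that of WBC was chr13:65846775-66418578, at 0.478 ± 0.0789 in WBC and 1.22 ± 0.242 in CTC.

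At the antigen receptor loci, 20 bins overlapped the 6 loci and 14 of them passed the filter on capped values. A value below 0.6 of the autosomal median in at least 3 WBC was met by 5 of these 14, against 2.77% of autosomal bins. They were 3 Tcra/Tcrd bins and 2 Igk bins. The Tcra V bin above was low in all 67 WBC. The flanking Tcra V bins (chr14:52353919-52958218 and chr14:53528637-54085778) had 8 and 4 such cells, but their medians over WBC were 0.715 and 0.713, and at a limit of 0.5 neither had any. Their means were 0.731 and 0.724 in WBC and 0.794 and 0.751 in CTC. Relative to 0.6 of each bin's own median, 0 WBC were low in either. The Tcra bin with 62 J segments and the constant region genes (chr14:54085779-54624066) had a lowest WBC value of 0.680 and a mean of 0.948 ± 0.0925. In the Tcrb bin with its D, J and C segments the lowest was 0.799, in the Tcrg bin 0.695 and in the Igl bin 0.7496.

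The Igh locus gave the widest spread between cells. The Igh J bin (chr12:113419638-113977619) holds all 4 Igh J segments, 20 D segments, 37 V segments and most of Ighm, the constant region gene of IgM. Of the V segments, 24 are not annotated as pseudogenes. This bin is left out by the filter on capped values, as 5.25% of all 648 cells reach the cap, though no WBC does. Its median over WBC was 1.47, so each cell was also set against 0.6 of that median, a ratio of 0.879; this limit was chosen after the values were seen. In naive WBC the lowest, median and highest values were 0.0193, 1.54 and 1.78. In C1L the values were 0.781, 0.880 and 1.43. In C1N they ran from 1.29 to 1.73 with a median of 1.48, and in C3R from 1.16 to 1.73 with a median of 1.43. C1R ran from 0.554 to 2.05 with a median of 1.45, C2R from 0.223 to 1.57 with a median of 1.46, and the 2 C2N cells had 0.952 and 1.42. Low cells thus occurred in naive, C1L, C1R and C2R cells, while C1N and C3R had none below 1.16.

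**Figure D2:**
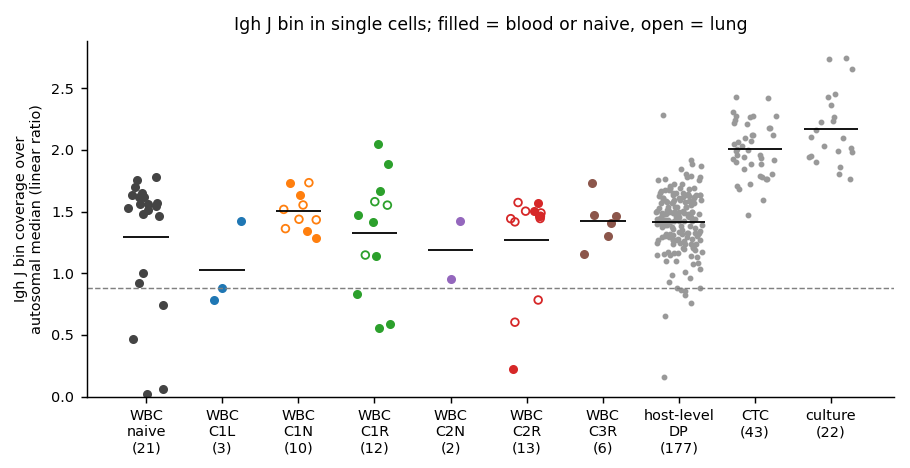
Coverage of the Igh J bin over the autosomal median in each WBC by batch (filled for blood or naive, open for lung), and in host-level DP, CTC and cultured cells (small points); bars are means over cells, numbers in parentheses are cells, and the dashed line is 0.6 of the WBC median (0.879). The lowest WBC are 2 naive cells at 0.0193 and 0.0576 and a C2R blood cell at 0.223, whereas CTC and culture lie above 1.46.

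Below 0.879 were 11 of 67 WBC (16.4%, exact 95% interval 8.49 to 27.5, counting error only): 4 of 21 naive and 7 of 46 tumor-injected cells. The highest of the 11 had 0.836 and the next cell above the limit 0.880. The 3 lowest were 2 naive cells at 0.0193 and 0.0576 and a C2R blood cell at 0.223, with noise of 0.151 to 0.154, below the WBC median of 0.162. The 2 lowest naive cells were at 0.0132 and 0.0393 times the WBC median of this bin. Another naive cell stood at 0.470. The C1R cells at 0.554, 0.587 and 0.836 were all among the 7 with the shared profile. By the same rule, relative to each bin's own WBC median, 0.482% of 4146 autosomal bins had 3 or more low cells. Of bins without capped WBC, 2 had more low cells than the Igh J bin, both with a median ratio under 0.01. At 3878 bins (93.5%) no WBC was low.

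Of the other Igh bins, the constant region bin on one side (chr12:112896048-113419637) and the last V bin on the other side (chr12:115664963-116235012) had no WBC below 0.6, with lowest values of 0.790 and 0.713. The 3 V bins between reached the deposited cap in 46, 21 and 34 WBC and give no upper values.

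At Igk, 2 neighbouring V bins were low in some cells. The bin chr6:68648345-69234146, with 32 V segments (18 without pseudogenes), averaged 0.779 ± 0.173 with 7 WBC below 0.6. The bin chr6:69234147-69822259, with 36 (21 without pseudogenes), averaged 0.910 ± 0.186 with 5. The lowest values, 0.0592 and 0.201, came from the same C2R lung cell, whose Igh J bin was at 0.783. The naive cell with the lowest Igh value had 0.414 and 0.444 in these bins. The bin with the Igk J segments and Igkc, the constant region gene (chr6:70403972-70964776), had no WBC below 0.706. Taking the mean of both V bins per cell, 3 WBC were below 0.6 of its median, and 2 of these 3 were also below the Igh limit. Over the 67 WBC the Igh J and Igk values had Pearson's r = 0.50 and Spearman's rho = 0.43. Within the naive batch r was 0.62 (n = 21 cells) and within tumor-injected batches 0.40 (n = 46). The cells share an amplification method and their batches, and the value is a description. Both V bins, here and in the comparisons below, were picked because at least 3 WBC were below 0.6 there. The corresponding r of the Igh J bin with the Tcrb D, J and C bin was -0.15 and with noise 0.06.

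**Figure D3:**
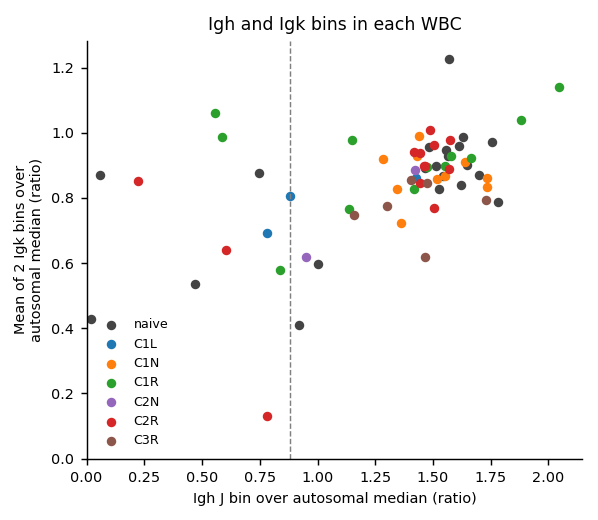
Mean coverage of the 2 Igk V bins (vertical) against the Igh J bin (horizontal), both over the autosomal median, in each of the 67 WBC, coloured by batch; the dashed line is the Igh limit of 0.879. Low Igh values occur with Igk values from 0.130 to 1.06, and the lowest Igh cell also has a low Igk value (0.429).

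Against CTC of the same batches, 11 of the 14 receptor bins differed by limma at a 5% false discovery rate, 2 higher in WBC and 9 lower, where 49.8% of all bins differed. All 4 kept Igk bins, both Tcrb bins and both kept Igh bins were lower in WBC, Igk by -0.61 to -0.68 (log2). Higher in WBC were the Tcra J and constant region bin (0.31) and the Tcrg bin (0.25). These are differences in level to a tumor line with its own copy numbers. Igk and Tcrb lie on chromosome 6, where bins of genes outside the receptor loci were also lower in WBC. Mean ratios in WBC and CTC were 0.956 and 1.45 for Cd4 and 0.968 and 1.39 for Cd8a. They were 1.13 and 1.64 for Klrb1c and 0.839 and 1.19 for Ezh2. The part of the chromosome's level in the receptor differences was not tested. The lowest Igh J bin value was 1.47 among CTC and 1.76 in culture, so no tumor cell was near the low WBC.

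Genes outside the receptor loci were examined in 4 lists, each gene by the bin over its midpoint. The mean ratio of the 12 genes of lymphocyte development and recombination, Rag1 and Rag2 among them, ranged from 0.829 to 1.06, with a median of 1.03. For 12 leukocyte surface genes the range was 0.861 to 1.46, for 10 genes of clonal blood disorders such as Dnmt3a and Tet2 0.808 to 1.17, and for 9 of 10 long genes of fragile sites, Fhit and Wwox among them, 0.824 to 1.13. The other fragile-site gene, Immp2l, lay in a bin left out by the filter on capped values, with a mean ratio of 2.62 ± 2.07 (lowest 0.652, highest 5.88). The median over all bins was 1.01. Of the 43 genes in kept bins none had 3 or more WBC below 0.6, and of all 4376 kept bins 139 did. The share was 2.77% among autosomal bins, at which few of 43 genes would be low, so no contrast is drawn.

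Among the 4120 autosomal bins that passed the filter on capped values, the most variable were high rather than low in a minority of WBC. The filter itself removed bins that varied more: 79 of the 304 autosomal bins left out had a larger SD over WBC than any kept bin, up to 1.08 for that of Immp2l. The 10 kept bins with the largest SD (0.636 to 0.857 on the log2 scale, against a median bin of 0.146) fell into 2 sets, each lifted in its own cells. Across the 67 cells, bins of the same set had r of 0.93 to 0.98 and bins of different sets -0.19 to -0.01.

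The first set had 6 bins on 5 chromosomes. The most variable was that of Runx1t1, a transcriptional corepressor gene (chr4:13210106-13748083, mean ratio 1.797 ± 1.32). It was followed by that of Rgs1, Rgs2 and Rgs13, regulators of G protein signalling (chr1:143899400-144470007, 2.23 ± 1.55), and that of Nbn, a DNA break repair gene, and Ripk2, a kinase gene of innate immune signalling (chr4:15990436-16565704, 2.21 ± 1.38). The others were those of Shox2 and Rsrc1 (chr3:66656429-67232258, 1.95 ± 1.22), of Kcnh8, a potassium channel gene (chr17:52455914-53014095, 1.77 ± 1.02), and a bin with no protein-coding gene (chr8:73386454-73964920, 2.16 ± 1.16).

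The second set had 4 bins. These were the bin of Pkhd1l1, Ebag9 and Sybu (chr15:44505134-45065249, 1.42 ± 1.18) and that of Ptprc, which encodes the leukocyte surface phosphatase CD45 (chr1:137709150-138243848, 1.46 ± 1.13). The remaining ones were that of Arl13b, Stx19 and Pros1 (chr16:62817859-63368556, 1.39 ± 1.02) and that of Gabrb2 and Atp10b (chr11:42502610-43052492, 1.55 ± 1.11). In 5 of the 10 bins 1 or 2 WBC reached the cap.

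Counting cells whose median over a set exceeded 2, 20 of 67 WBC were high in the first set, 7 in the second and none in both. The first set was high in 4 of 4 blood and 6 of 9 lung cells of C2R, in 3 of 12 C1R, 2 of 6 C3R, 1 of 10 C1N and 4 of 21 naive cells. The second was high in 4 of 10 C1N cells and in 1 cell each of C1R, C3R and the naive batch. High cells had first-set medians of up to 5.10 and second-set medians of up to 5.53. The same sets were high in 26 and 24 of 177 host-level DP cells, 2 of them in both. The highest first-set value was 1.76 in CTC and 1.65 in culture, so all CTC and cultured cells stayed under 2. A correlation over 0.8 with a set's median was found at 21 autosomal bins on 12 chromosomes for the first set and at 39 on 14 chromosomes for the second, with none shared.

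**Figure D4:**
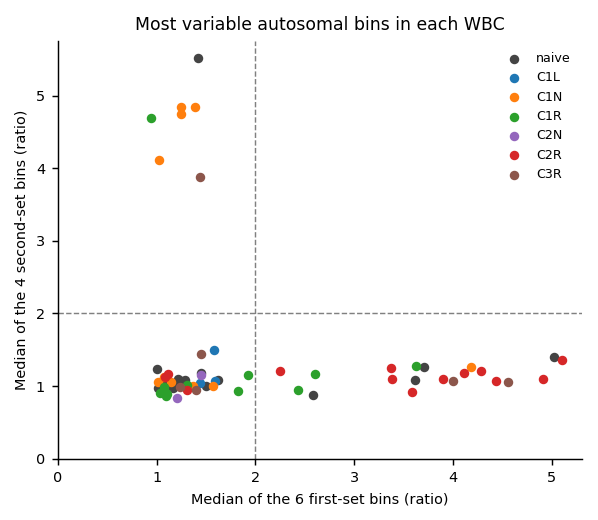
Median coverage ratio of the 6 bins of the first set (horizontal) and of the 4 bins of the second (vertical) in each WBC, coloured by batch; dashed lines mark 2. The cells form a main group near 1 on both axes, an arm of 20 cells high in the first set, 10 of them from C2R, and 7 cells high in the second set.

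Tumor-injected and naive WBC were compared over batches with at least 3 WBC, 5 against 1. No bin of 4376 differed by limma at a 5% false discovery rate (0%), and 57 had an unadjusted p below 0.05. With 5 batches against 1 the exact permutation test cannot go below 0.167, so none of the summary values could pass.

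The Igh J bin averaged 1.31 ± 0.181 (SD, n = 5 batches) in tumor-injected batches and 1.29 in the naive batch (two-sided exact permutation p = 1, adjusted p = 1 over 8 measures). The share of cells below the Igh limit was 16.3% ± 15.4 against 19%. In cells below the median noise the Igh J bin difference was 0.37 in place of 0.01 and that of the share -19.4 percentage points in place of -2.77, and without C1N or C3R both changed sign (-0.03 and -0.01 for the bin, 1.30 points for the share in each case). The Igk bins were at 0.835 ± 0.0604 against 0.837. The X level was 0.03 ± 0.05 against -0.002, higher than naive in 4 of 5 batches, and the noise was 0.168 ± 0.0142 against 0.166. The between-cell SD of autosomes was 0.0436 ± 0.0167 against 0.0336, higher in 3 of 5 batches. The share of cells high in the first variable set was 29.1% ± 29.7 against 19%, and that of cells with a chromosome deviation 8.67% ± 14.5 against 0%. Each naive value lay within 1 SD of the tumor-injected mean. Among autosomes the largest difference was 0.03 on the log2 scale, on chromosome 11, where the naive batch was below all 5 tumor-injected batches.

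The bins with the smallest p lay next to each other on chromosome 5 and hold genes of the Pramel family, multicopy relatives of the human gene PRAME; they were picked from these p-values. In the first (chr5:93886548-94528294, with Pramel36 to Pramel42), batch means were 0.207 in C1L, 0.173 in C1N, 0.259 in C1R, 0.214 in C2R and 0.182 in C3R, and the naive batch was at 0.345. The naive cells ranged from 0.294 to 0.379, and 1 batch, C1R, had cells in that range, its highest at 0.385. The difference was -0.62 on the log2 scale (SE 0.13, unadjusted p = 0.000845, limma adjusted p = 1.00).

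In the second bin (chr5:94528295-95109033, with Pramel42 to Pramel45), the batch means were 0.132, 0.122, 0.151, 0.126 and 0.146 in the same order, and the naive batch was at 0.219. The difference was -0.52 (SE 0.09, unadjusted p = 0.000146, limma adjusted p = 0.638). The naive cells ranged from 0.176 to 0.274, with a C1L cell at 0.180 and C1R cells up to 0.184 in that range. Without C1R both bins passed (adjusted p = 0.0212 and 0.0230), as they did in cells below the median noise (0.00635 and 0.0226). Over the other alternatives the adjusted p ran from 0.106 to 1.00 for the first and from 0.0656 to 1.00 for the second. Host-level DP batches, all from tumor-injected mice, averaged 0.192 ± 0.0115 and 0.127 ± 0.0130 (n = 9 batches), and each of the 9 means was below the naive WBC value. Except for P1, P2 and P4, these batches also gave WBC, so they are not independent of the WBC values. Low values were not limited to host cells of injected mice. Cells of the cultured line averaged 0.174 and 0.114 (n = 22 cells), also below naive WBC, and the CTC means were lower again in both bins. The naive state is carried by 1 batch, so treatment and batch cannot be told apart.

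The chromosome 13 bin named above was low in 1 batch. Its mean ratio was 0.235 in C1L, where the 3 cells had 0.227, 0.237 and 0.241, against 0.437 to 0.515 in C1N, C1R, C2R and C3R and 0.515 in the naive batch. C1L did not overlap any other batch, whose lowest cell was a C3R cell at 0.296. In host-level DP the C1L median was 0.265, with 1 cell at 1.25, and the medians of the other batches ran from 0.405 to 0.517.

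**Figure D5:**
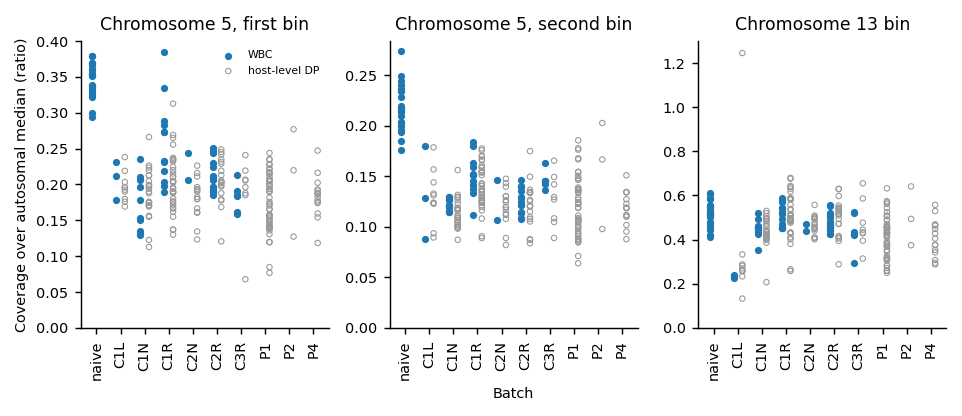
Coverage over the autosomal median of both chromosome 5 Pramel bins and the chromosome 13 bin, by batch, in WBC (filled) and host-level DP cells (open); each point is a cell. The naive mean is the highest of the WBC batch means in both chromosome 5 bins, with a C1R cell at 0.385 above all naive cells in the first, and C1L cells of both classes are mostly low in the chromosome 13 bin.

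Lung and blood WBC were compared within the 3 batches that had both, C1N, C1R and C2R. No bin differed by limma with batch as block (0% of 4376, 166 with an unadjusted p below 0.05). When C1R was left out, so that only C1N and C2R remained, 5 passed. Those 5 included the bins of Ptprc (0.36 higher in lung) and of Arl13b, Stx19 and Pros1 (0.33 higher), both of the second variable set. That set was high in 3 of 6 lung and 1 of 4 blood cells of C1N and in 0 of 13 cells of C2R. With 3 pairs the exact sign-flip permutation test cannot go below 0.25. The Igh J bin was 1.41 ± 0.103 in lung and 1.33 ± 0.158 in blood (n = 3 batches), higher in lung in 3 of 3 (p = 0.25, adjusted p = 0.857 over 8 measures, two-sided exact sign-flip permutation test). Lung batches had 7.41% ± 12.8 of cells below the Igh limit and blood 19.4% ± 17.3. The X level was 0.01 ± 0.02 in lung and 0.04 ± 0.09 in blood, where C1R blood was at 0.14. The X level difference of -0.03 was 0.02 without C1R and -0.08 without C1N, and the Igh-low difference of -12.0 points was -1.39 without C1R and -18.1 without C1N.

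WBC and host-level DP cells of the same batches had no bin past limma's threshold with batch as block (0% of 4376, 375 with an unadjusted p below 0.05). Below the Igh limit were 16.3% ± 15.4 of WBC and 5.07% ± 5.83 of host-level DP cells (n = 5 batches). The difference of 11.2 percentage points was positive in 3 of 5 batches (p = 0.25, adjusted p = 0.6 over 8 measures, two-sided exact sign-flip permutation test, smallest possible p 0.062). Leaving out 1 batch in turn gave 8.18 to 17.1 points, the highest without C3R. By batch, WBC against host-level DP were at 33.3% and 10.0% in C1L, 0% and 0% in C1N, 25% and 2.86% in C1R, 23.1% and 0% in C2R, and 0% and 12.5% in C3R. Over all cells 6 of 177 host-level DP cells were below the Igh limit (3.39%, exact 95% interval 1.25 to 7.23, counting error only), the lowest at 0.157. These 177 include cells of the tumor-injected batches P1, P2 and P4, which gave no WBC. The interval treats cells as independent and is no test against WBC. The Igh J bin averaged 1.31 ± 0.181 and 1.44 ± 0.147 (adjusted p = 0.6), the Igk bins 0.835 ± 0.0604 and 0.868 ± 0.0690 (adjusted p = 0.75), in the same test. The Igk bins were picked from their low WBC values, so the Igk test is not independent of that choice. The Igh J difference of -0.13 ran from -0.22 without C3R to -0.07 without C1L. The between-cell SD of autosomes was 0.0436 ± 0.0167 and 0.0567 ± 0.00976, lower in WBC in 4 of 5 batches (exact sign-flip permutation p = 0.125, adjusted p = 0.6). Host-level DP cells of C1L, at 0.0723, include the cell with a tumor score of 0.92, which enters every C1L value of this comparison. The comparison without that cell alone was not made. Leaving out 1 batch in turn, C1L among them, gave SD differences of -0.0181 to -0.0105.

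In none of the 3 comparisons did a gene of the 4 lists pass limma at a 5% false discovery rate. Unadjusted p values below 0.05 were reached by 2 of 43 listed genes between tumor-injected and naive, by 1 between lung and blood and by 6 between WBC and host-level DP. Over all bins the shares were 1.30%, 3.79% and 8.57% in the same order. Rag1 and Rag2 share a bin, as do Cd3e and Kmt2a, so the listed genes are not all separate tests. The median difference of the listed genes was 0.006, 0.006 and -0.009 on the log2 scale in the 3 comparisons, against 0.005, -0.006 and 0.007 over all bins. The Foxp3 bin, with the gene of the regulatory T cell factor, was singled out from its value, the third smallest p between tumor-injected and naive WBC (0.23 higher on the log2 scale, SE 0.07, unadjusted p = 0.00646, limma adjusted p = 1.00), and it lies on X, whose median was 0.03 higher.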

How the data were processed

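The members and lists were chosen with earlier results of these data known. Coverage signal per genome bin (4880 bins, 648 cells) was deposited by the authors, normalized per cell and scaled, with values that stop at 10 in many cells. Per the submitters' processing notes the build is mm10 and BWA, Picard, SAMtools and Trim Galore were used; their roles, and the steps behind the bins and the scaling, are not given in the sources used here. Bins at the cap in at least 1% of all cells were left out, which kept 4120 autosomal and 256 X bins. Log2(value + 0.1) was centred on each cell's autosomal median; ratios have no pseudocount. Batch means (at least 3 cells, 2 per tissue) were tested with limma 3.58.1 in R 4.3.3, with Benjamini-Hochberg adjustment at 5%. Summary values were tested with exact permutation tests. The limma test was tried on simulated data, and the permutation tests were checked only on short made-up series of values. Genes come from RefSeq's GRCm38.p6 table. Named are receptor bins with at least 3 WBC below 0.6, the 10 lowest and 10 most variable bins, and listed genes past a test; other names were chosen after their values were seen. Batches are numbered in accession order, so no number pairs samples; blocks are the batch itself. Alternatives changed the pseudocount, filter, centring, cells, batches and limits.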

Additional observations from a re-analysis of the deposited data

Results flagged for a closer look

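The values of each batch were compared with those of the other batches by Dixon's gap-to-range test, which flags about 1 in 20 groups by chance; 6 of 48 groups passed. Among WBC of tumor-injected batches, C1L had a mean ratio of 0.235 in the chromosome 13 bin (0.437 to 0.515 in the others). In the Tcra V bin that was low in all WBC, C2R had 0.00441 (0.00924 to 0.0101 in the others). Naive WBC, outside this comparison, were lower in that bin at 0.00270, as were host-level DP cells of C2R at 0.00211. C1R had 0.875 in the Tcra/Tcrd bin from 52353919 (0.680 to 0.7003) and 1.22 in the Tcrb D, J and C bin (0.977 to 1.02), where host-level DP cells of C1R averaged 0.710 and 1.00. In that Tcrb bin the 7 C1R blood cells with the shared profile had 1.20 to 1.59. C1L had 0.972 in the Tcrb bin from 40483855 (1.02 to 1.03 in the others). Among host-level DP batches, C1L averaged 0.0460 in the Tcra V bin, where its median was 0.00955 and 1 cell had 0.367. Outside the bins used for the comparisons, the 166 Y bins had a median of 0.218 and 0.147 of the autosomal median in 2 C2R blood WBC, above the highest naive WBC (0.0299).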

How the results depend on the processing

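Of 382 alternative values of 38 results, 353 stayed within the spread between batches or within 1.5 times the count, and 29 moved further. Of 295 alternative values of the 24 summary differences, none of which passed a test, 31 had the opposite sign, 16 of them on leaving out a batch, so no direction is drawn from these. In cells below the median noise, tumor minus naive gave 2 bins, an Igh J bin difference of 0.372, a difference in the Igh-low share of -19.4 percentage points and an Igk difference of 0.132, and lung minus blood an Igh J difference of 0.162. Leaving out each batch in turn gave 0 to 2 bins for tumor minus naive and 0 to 5 for lung minus blood, the higher counts without C1R, and 0 for WBC minus host-level DP. No replicate block (the fit without batch as block) gave 0 bins for lung minus blood and 0 for WBC minus host-level DP. Chromosome deviations numbered 10 in 5 cells at a limit of 0.2, 0 in 0 cells at 0.4 and 4 against the naive mean. Runs numbered 64 at 0.3, 4 at 0.5 and 1 with at least 20 bins. Low bins numbered 20 at 0.25 and 96 at 0.75. Receptor bins with at least 3 low WBC numbered 3 of 14 at 0.5 and 3 of 14 relative to each bin's own median (4 of 16 with the Igh J bin and another that no WBC caps), an alternative chosen after seeing the data. The cause of these changes was not tested, except that limits and cell numbers differ by construction. The noise limits single cells, and 1 naive batch limits the tumor comparison.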
